A study of Homo sapiens with 24 samples.

Results

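The interaction between TGFβ and galunisertib in the SNU-449 cell line, that is, how far the response to TGFβ differed when the receptor inhibitor was present, was measured on 12 of the 24 arrays of the series. The members are samples, chosen by their labels alone: every array of SNU-449, an established line derived from human hepatocellular carcinoma (HCC), as a design of 2 by 2 groups with 3 arrays each. The groups were untreated control cells, cells given recombinant human TGFβ1 at 1 ng/mL, cells given galunisertib (LY2157299) at 10 µM, and cells given TGFβ and galunisertib at the same doses. Treatment followed overnight serum starvation and lasted 16 h, when RNA was taken. The handling of the untreated controls is not stated separately. The replicates came from 3 independent culture experiments. The other 12 arrays hold the same design in PLC/PRF/5, another HCC line, and served for a single comparison. For each gene the interaction is the difference between TGFβ + galunisertib and galunisertib alone, minus the difference between TGFβ and control, on the log2 scale. A value below 0 means that the response to TGFβ was lower with the inhibitor than without it.

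TGFβ binds a pair of receptors, and the type I receptor kinase phosphorylates SMAD2 and SMAD3, which enter the nucleus with SMAD4 and regulate transcription together with other factors. Among the usual target genes are inhibitors of the same pathway, secreted matrix proteins and transcription factors of the epithelial-to-mesenchymal transition (EMT), in which epithelial cells lose cell-cell contacts and gain motility. Galunisertib is an ATP-competitive inhibitor of the type I receptor kinase, and it also reaches the related kinases of the activin and nodal receptors. Liver cells exposed to TGFβ are known to lose part of their hepatocyte gene program.

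Levels are log2 values of the processed signal relative to the 75th percentile of the probes on the same array, which is 0 on this scale, and signals below a floor were set to a log2 of -3.61. Between 41.6% and 46.7% of the probes of an array were well above background, and arrays of the same group correlated across genes at 0.989 to 0.992 for control, 0.995 for TGFβ, 0.976 to 0.981 for galunisertib and 0.983 to 0.987 for TGFβ + galunisertib. On each slide the arrays with TGFβ lay in the second row and those without it in the first, so that TGFβ and the row cannot be told apart in either response. An additive offset of slide, row or column cancels in the interaction. Of the 20 hepatocyte secreted and metabolic genes listed, 11 (ALB, APOB and TF among them) did not pass the filter on dim probes in SNU-449, and VIM, an intermediate filament of mesenchymal cells, had a mean level of 9.34 in control cells. Of the 9 leukocyte and endothelial genes listed, 3 passed the filter. PTPRC and VWF were dim in control, at mean levels of -2.64 and -2.71, but well above background on nearly all arrays, with interactions of -0.32 ± 0.50 and -0.27 ± 0.50 (SE).

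Most genes that responded to TGFβ alone responded less when galunisertib was present. Of 16099 genes tested, the interaction was called for 232, of which 170 were lower and 62 higher, with a gene called at a change above 2-fold and an unadjusted P below 0.001 by limma. The called shares were 1.06% of all genes tested for lower and 0.385% for higher interactions. With a Benjamini-Hochberg adjusted p below 0.05 and the same fold limit the count was 249. The median interaction over all genes was -0.11. Among the called genes the median interaction was -1.39 for the lower and 1.38 for the higher ones, values that the fold limit itself keeps away from 0.

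The called interactions were mostly TGFβ responses called without the inhibitor and not called with it. Both responses are terms of the interaction, so that this split follows in part from the choice of genes and is a description. Over all genes tested, 1.52% were called higher and 0.839% lower with TGFβ alone. Of the 170 lower ones, 135 were called higher with TGFβ alone and not under galunisertib, 8 were called lower under galunisertib only, and 27 were called in neither response. Of the 62 higher ones, 35 were called lower with TGFβ alone and not under galunisertib, 9 were called higher under galunisertib only, 1 was called higher in both responses, and 17 were called in neither. Levels were well above background on all 12 arrays for 108 of the 170 and 45 of the 62, beside 13926 of all 16099 genes tested. For 36 of the 170 neither group given galunisertib had an array well above background, so that their response under the inhibitor has no measured size. The same held for 126 of all 16099 genes tested. The called genes were thus more often dim than the tested genes as a whole.

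Seen from the response itself, TGFβ alone raised 245 genes and lowered 135 (1.52% and 0.839% of the genes tested, 445 in both directions by adjusted p). The response under galunisertib was measured on other arrays and held 81 genes called higher and 35 called lower (0.503% and 0.217%, 114 by adjusted p). These genes were chosen by their response without the inhibitor, so that its size is a description. The 245 genes raised by TGFβ had a median response of 1.40 without galunisertib and of 0.20 with it, beside medians of 0.04 and -0.07 over all genes. Among them, 22 were also called higher under galunisertib, and the interaction was called for 136. The 135 genes lowered by TGFβ had medians of -1.30 and -0.44, 8 of them were called lower under galunisertib, and the interaction was called for 35. The response was smaller in size with galunisertib for 229 of the 245 and 132 of the 135. Its direction was the same for 173 of the 245 and for 112 of the 135, where 37.9% of all genes were above 0 and 61.8% below 0 in that response.

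**Figure D1:**
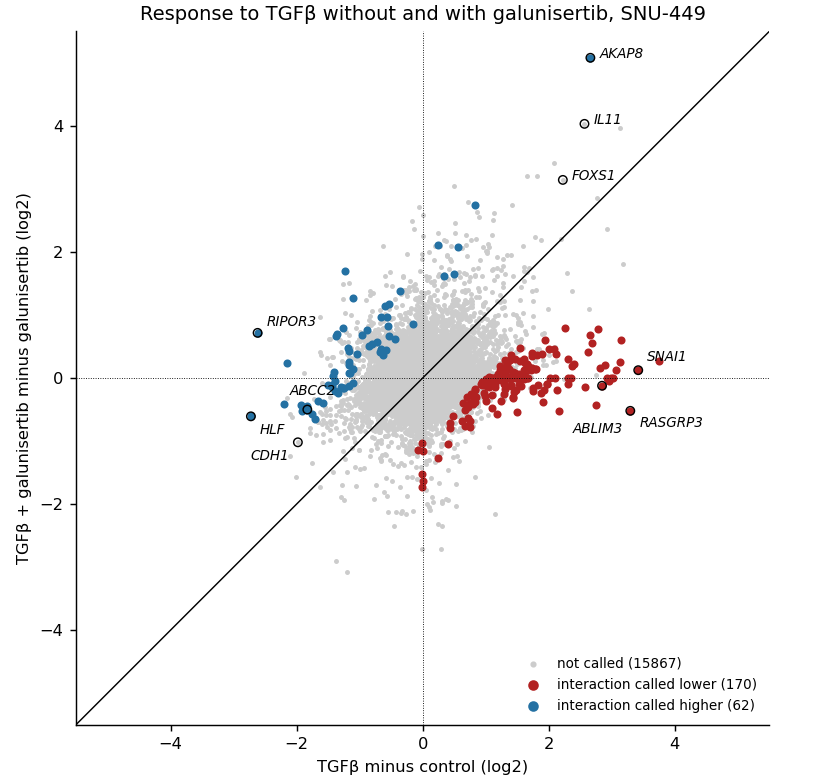
Each point is 1 of 16099 genes, with the response to TGFβ alone on the horizontal axis and the response to TGFβ in the presence of galunisertib on the vertical axis, both as log2 differences between group means of 3 SNU-449 arrays. The diagonal marks equal responses; the 170 genes with a lower interaction (red) lie below it, mostly near a vertical value of 0, and the 62 with a higher interaction (blue) lie above it.

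The genes given as markers of this interaction showed its main forms. SNAI1 encodes Snail, an EMT transcription factor that represses CDH1. Its level was -1.08, -1.31 and -1.24 on the control arrays, 2.15, 2.23 and 2.25 with TGFβ, -1.69, -1.38 and -1.74 with galunisertib, and -1.32, -1.51 and -1.60 with both. The TGFβ arrays stood above the other 9, and the 2 groups given galunisertib overlapped. SNAI1 rose by 3.42 (log2) with TGFβ alone and differed by 0.12 (log2, SE 0.12, limma adjusted p = 0.61) under galunisertib, and the interaction was -3.30 ± 0.17 (SE, n = 3 arrays per group, limma adjusted p = 7.1e-06). ABLIM3, which encodes an actin-binding LIM protein, followed the same form. Its level was -2.75, -2.20 and -2.09 in control, 0.49, 0.41 and 0.59 with TGFβ, -2.19, -2.30 and -2.83 with galunisertib, and -2.50, -2.68 and -2.51 with both. The 3 groups other than TGFβ alone overlapped, and the interaction was -2.97 ± 0.28 (SE, limma adjusted p = 0.00036).

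HLF and ABCC2 moved the opposite way. HLF is a PAR bZIP transcription factor expressed in the liver. Its level was 0.04, 0.29 and 0.49 in control, -2.53, -2.56 and -2.26 with TGFβ, 1.65, 1.12 and 1.89 with galunisertib, and 0.93, 0.84 and 1.06 with both. The groups did not overlap: TGFβ alone lay lowest, galunisertib alone highest, and the combination between control and galunisertib. HLF fell by 2.73 with TGFβ alone, differed by -0.61 (SE 0.19, limma adjusted p = 0.15) under galunisertib, and had an interaction of 2.12 ± 0.27 (SE, limma adjusted p = 0.0026), which was not called after another background correction (0.95) or without the arrays of replicate 1. ABCC2 encodes MRP2, an exporter of conjugated compounds in the hepatocyte canalicular membrane. Its level was 2.31, 2.50 and 2.41 in control, 0.70, 0.52 and 0.50 with TGFβ, 3.48, 3.55 and 3.18 with galunisertib, and 2.79, 2.89 and 3.02 with both. The order of the groups was that of HLF, again without overlap. ABCC2 fell by 1.83 with TGFβ alone and differed by -0.50 (SE 0.12, limma adjusted p = 0.063) under galunisertib, with an interaction of 1.33 ± 0.16 (SE, limma adjusted p = 0.0021) that was no longer called when arrays were scaled to their median.

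**Figure D2:**
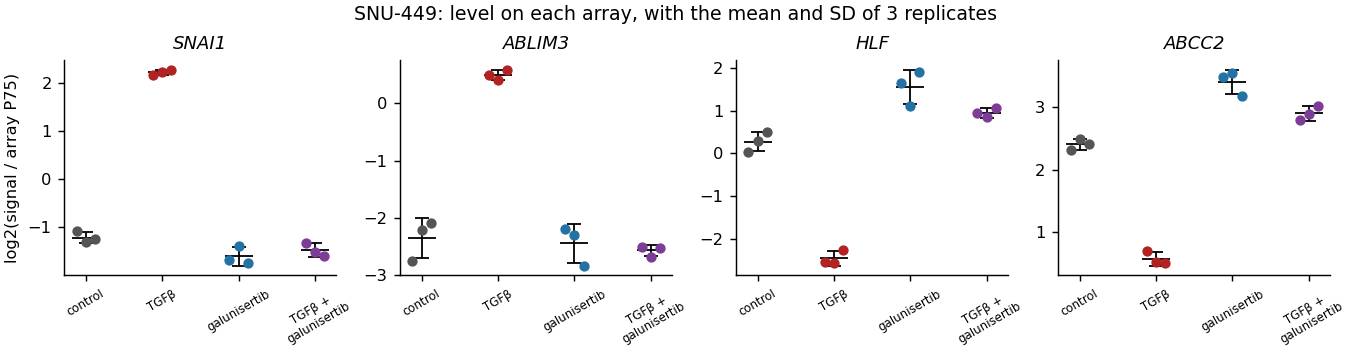
Level of SNAI1, ABLIM3, HLF and ABCC2 on each SNU-449 array (points), as log2 of the signal over the 75th percentile (P75) of the array, with the mean and SD of the 3 replicates of each group (bars). SNAI1 and ABLIM3 were high with TGFβ alone, whereas HLF and ABCC2 were low with TGFβ alone and higher with galunisertib than in control.

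The bases just upstream of 3 of these genes, and of IL11 as a gene whose response was not reduced, are shown for reference, since these genes stand for the forms that the interaction took. They are the 250 bases before each RefSeq gene start (GRCh38.p14), read 5′ to 3′ on the strand of the gene. Capitals mark the SMAD box CAGAC on either strand and the AP-1 site TGANTCA. HLF holds 1 SMAD box, IL11 holds 1 SMAD box and 1 AP-1 site, and ABLIM3 and ABCC2 hold neither sequence in this window. Of 27305 promoters of the same length in the table, 37.8% hold a SMAD box and 6.60% an AP-1 site, so that single matches are common and mark no bound site. Promoters were found for 124 of the 170 and 35 of the 62 called genes, under 80% of either group, and a comparison of motif shares between the groups is therefore void.
ABLIM3, chr5:149141243-149141492, plus strand: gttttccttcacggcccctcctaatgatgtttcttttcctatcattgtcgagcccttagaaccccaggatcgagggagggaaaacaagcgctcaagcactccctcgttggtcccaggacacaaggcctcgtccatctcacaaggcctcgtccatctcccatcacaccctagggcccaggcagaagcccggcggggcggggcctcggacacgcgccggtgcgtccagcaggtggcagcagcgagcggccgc
HLF, chr17:55264710-55264959, plus strand: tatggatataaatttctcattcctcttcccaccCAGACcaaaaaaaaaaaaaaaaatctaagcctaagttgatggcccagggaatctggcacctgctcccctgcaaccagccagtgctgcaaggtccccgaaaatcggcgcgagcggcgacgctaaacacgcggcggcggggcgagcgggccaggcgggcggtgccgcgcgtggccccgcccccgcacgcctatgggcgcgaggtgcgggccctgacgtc
ABCC2, chr10:99782390-99782639, plus strand: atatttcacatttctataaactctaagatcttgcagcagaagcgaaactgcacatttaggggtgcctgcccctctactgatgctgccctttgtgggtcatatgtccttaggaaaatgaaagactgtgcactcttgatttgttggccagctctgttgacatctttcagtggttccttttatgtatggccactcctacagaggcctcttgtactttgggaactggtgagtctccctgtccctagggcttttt
IL11, chr19:55370464-55370713, minus strand: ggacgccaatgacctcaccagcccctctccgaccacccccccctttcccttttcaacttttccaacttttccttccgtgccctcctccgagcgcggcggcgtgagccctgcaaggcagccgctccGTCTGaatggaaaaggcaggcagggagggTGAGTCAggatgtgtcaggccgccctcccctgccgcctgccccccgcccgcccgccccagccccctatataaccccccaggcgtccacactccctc

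The lowest interactions belonged to genes with diverse known roles. RASGRP3, an exchange factor that activates RAS proteins, had levels of -3.54, -3.28 and -3.06 in control and -0.03, -0.13 and 0.16 with TGFβ. With galunisertib its levels were -3.23, -2.70 and -3.33, and with both all 3 arrays were at the floor. The interaction of -3.81 ± 0.24 (SE, limma adjusted p = 5.1e-05) was the lowest among called genes with a RefSeq symbol, but with 3 arrays at the floor its size and rank depend on that floor, and it was -2.61 with a floor at 200% of that used, -1.82 with normexp background correction and -4.64 in the authors' values. TGFβ alone raised RASGRP3 9.80-fold. JAG1, a ligand of Notch receptors, was measured well above background on every array. Its levels were 0.47, 1.14 and 1.04 in control, 3.54, 3.66 and 3.69 with TGFβ, 1.21, 0.74 and 1.18 with galunisertib, and 0.90, 0.75 and 0.17 with both. The TGFβ arrays stood apart and the other 9 overlapped, with an interaction of -3.18 ± 0.32 (SE, limma adjusted p = 0.00056). LEFTY2, a secreted inhibitor of nodal signalling, rose 8.33-fold with TGFβ alone and had an interaction of -2.94 ± 0.31 (SE). A second probe of LEFTY2 gave -2.91. CLEC18B, a C-type lectin gene, rose 13.5-fold with TGFβ alone and had an interaction of -3.49 ± 0.34 (SE). Genes of this family share near-identical copies that a probe may not separate.

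The remaining genes among the 10 lowest were close to background without TGFβ. LDLRAD4, which encodes an inhibitor of SMAD2 and SMAD3 phosphorylation, was at -3.61, -2.48 and -2.19 in control and at 0.22, 0.18 and 0.39 with TGFβ, while all 6 arrays with galunisertib were at the floor. SPOCK1, a secreted proteoglycan, had an interaction of -3.0 ± 0.32 (SE), and it was well above background on 2 control arrays, on all 3 TGFβ arrays, on 0 galunisertib arrays and on 1 array with both. LMO1, a LIM-only transcriptional regulator, had levels of -0.57, -0.43 and -0.55 with TGFβ and was well above background on 1 of the other 9 arrays. The non-coding gene FLJ16779 was well above background with TGFβ alone and on 0 of the other 9 arrays. It was at least 7.13-fold higher with TGFβ than in control, where the bound sets the bright group against the weakest signal well above background on each dim array. Interactions of LDLRAD4, LMO1 and FLJ16779 (-3.02, -2.99 and -2.92) therefore rest on the response without the inhibitor, since the other response has no measured size. The FLJ16779 probe has a spot near an edge of the array.

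Among the genes with the highest interactions, the response to TGFβ was negative without galunisertib for some and positive with it for others. RIPOR3 had the highest interaction. Its levels were 1.50, 2.03 and 1.46 in control, -0.60, -0.96 and -1.30 with TGFβ, 1.01, 1.48 and 2.51 with galunisertib, and 2.57, 2.38 and 2.19 with both. The TGFβ arrays lay below the other 9. RIPOR3 fell by 2.62 with TGFβ in the absence of the inhibitor and the difference was 0.72 (SE 0.34, limma adjusted p = 0.30) in its presence, which gave an interaction of 3.33 ± 0.48 (SE, limma adjusted p = 0.0052). SLC16A5, a monocarboxylate transporter gene, repeated the pattern of HLF. Its levels were 1.47, 1.78 and 1.70 in control, -0.65, -0.57 and -0.45 with TGFβ, 2.44, 2.34 and 2.77 with galunisertib and 2.08, 2.09 and 2.13 with both, and the interaction was 1.79 ± 0.18 (SE, limma adjusted p = 0.00053). SLC14A1, a urea transporter gene, and CFLAR-AS1, an antisense RNA, had interactions of 2.06 ± 0.40 and 1.66 ± 0.31 (SE). CFLAR-AS1 was not well above background on any TGFβ array and was at least 2.28-fold higher in control. LINC00597 had an interaction of 1.65 ± 0.35 (SE), which was not called with the slide as a block (limma adjusted p = 0.078), and was called in neither response.

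The other genes among the 10 highest were low with galunisertib alone. AKAP8, which encodes a nuclear anchoring protein of protein kinase A, was at 0.52, 0.13 and -0.79 in control, 2.65, 2.61 and 2.59 with TGFβ, -3.61, -3.27 and -3.61 with galunisertib and 1.72, 1.26 and 1.78 with both. It was called higher in both responses and was at least 31.1-fold higher with TGFβ + galunisertib than with galunisertib, on which no array was well above background. The AKAP8 interaction of 2.42 ranged from 0.16 to 4.78 with other processing. Its call was lost with a higher floor, with normexp background correction and in the authors' values. In PLC/PRF/5 its difference between TGFβ and control was 2.71 with an interaction of 0.02. The linker histone pseudogene H1-9P (1.91 ± 0.32, SE), the ribosomal RNA processing gene RRP7A (1.73 ± 0.25) and the ribosomal protein pseudogene RPS16P5 (2.93 ± 0.43) were called higher under galunisertib only. RPS16P5 ranged from 0.76 to 4.74 with other processing. Its call was lost with a higher floor, with normexp, in the authors' values and without the arrays of replicate 3. A pseudogene probe may also bind transcripts of the parent gene. RIPOR3, AKAP8, RPS16P5, RRP7A and LINC00597 have a spot near an edge of the array (the outer 20 rows or 10 columns), as did 18.2% of the lower, 22.6% of the higher and 21.8% of all tested genes.

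**Figure D3:**
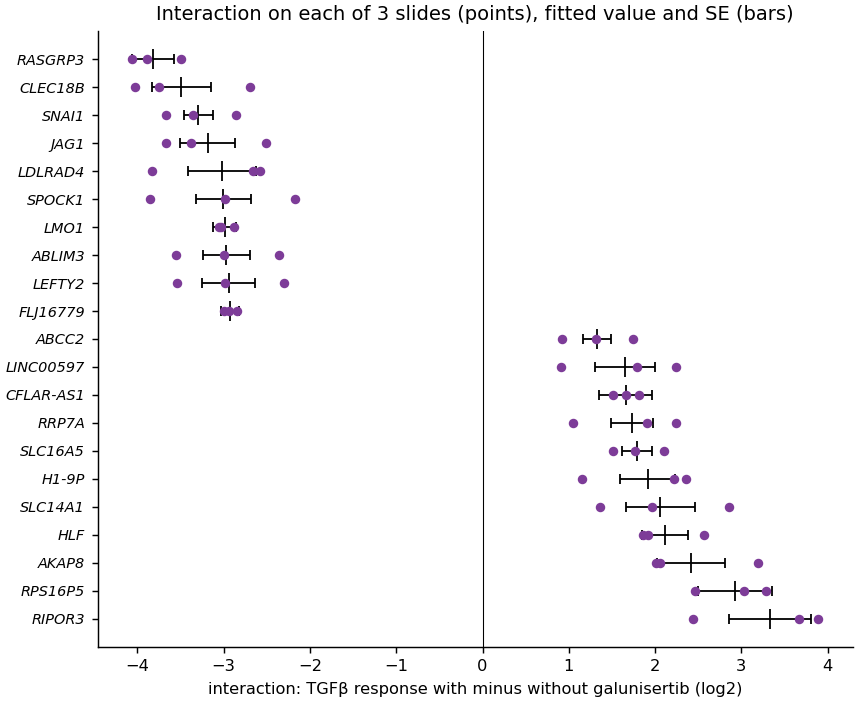
Interaction (log2) of the 10 lowest and 10 highest called genes with a RefSeq symbol, and of ABCC2, computed within each of the 3 slides (points), with the fitted value and its SE (bars). The points of every gene lie on 1 side of 0, which the rule for choosing the lowest and highest genes required.

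Within the TGFβ pathway itself the interaction differed from member to member. For the counts of list members, here and below, 1.06% of all genes tested had a lower and 0.385% a higher called interaction. Of the 14 ligands, receptors and SMADs tested, 2 were called lower, with a median interaction of -0.32. INHBA, which encodes the activin A subunit, was at 1.45, 1.20 and 1.35 in control, 3.39, 3.45 and 3.49 with TGFβ, 0.65, 0.91 and 0.82 with galunisertib and 1.23, 1.18 and 1.11 with both. TGFβ alone thus raised INHBA 4.32-fold, and the interaction was -1.74 ± 0.14 (SE, limma adjusted p = 0.00014). LTBP1, a latent TGFβ binding protein gene, had an interaction of -1.30 ± 0.27 (SE), a call lost in 18 of 31 alternatives, and was called in neither response, whereas LTBP2 rose by 1.51 with TGFβ alone and had an interaction of -0.62 ± 0.15 (SE) that was not called. The genes of the receptors and of the SMAD proteins were not called: TGFBR1 had an interaction of -0.35, TGFBR2 of 0.46, SMAD2 of -0.41, SMAD3 of -0.28 and SMAD4 of -0.09.

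Feedback regulators differed in their calls, where 1.06% of all genes tested had a lower called interaction and 0.503% were called higher under galunisertib. Of 12 tested, 3 had a called interaction, all lower, 3 others were called for TGFβ under galunisertib, and the remaining 6 (SMAD6, SKI, TGIF1, TGIF2, SMURF1 and SMURF2) were called in neither response nor for the interaction. The median interaction was -0.46. BAMBI, a pseudoreceptor that dampens TGFβ signalling, had levels of 5.67, 5.77 and 5.91 in control, 6.69, 6.77 and 6.85 with TGFβ, 6.24, 6.0 and 6.20 with galunisertib and 6.16, 6.0 and 5.95 with both, and an interaction of -1.10 ± 0.15 (SE, limma adjusted p = 0.0030). Its difference of 0.99 with TGFβ alone was just short of the fold limit. SPSB1, an adaptor for receptor ubiquitination, rose 3.71-fold with TGFβ alone and had an interaction of -1.51 ± 0.13 (SE), with LDLRAD4 as the third called member. In contrast, PMEPA1, SKIL and SMAD7, all inhibitors of SMAD signalling, were called higher with TGFβ under galunisertib, while their rises with TGFβ alone missed a limit of the call. They were singled out after their values were seen. PMEPA1 had levels of 6.59, 6.71 and 6.74 in control, 8.02, 8.07 and 8.18 with TGFβ, 3.63, 3.79 and 2.17 with galunisertib and 6.39, 5.97 and 5.48 with both. The mean with both was 0.73 lower than in control, and the mean under galunisertib alone was 3.48 lower. PMEPA1 rose by 1.41 (SE 0.37, limma adjusted p = 0.036) with TGFβ alone, above the fold limit but short of the P limit. SKIL and SMAD7 had responses of 2.08 and 1.36 under galunisertib and of 0.95 and 0.67 without it. Their interactions of 1.13 ± 0.43 and 0.69 ± 0.19 (SE) were not called. Without the inhibitor SMAD7 (limma adjusted p = 0.0086) missed the fold limit alone.

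Calls also differed among the 20 TGFβ-responsive genes tested. Of these, 9 were called higher with TGFβ alone and 6 under galunisertib, and the interaction was called lower for 4, with a median of -0.25. Over all genes tested the shares were 1.52%, 0.503% and 1.06%. The list was chosen with earlier results of these data known, so that its counts are a description. TGFBI, a secreted matrix protein, was at 8.04, 8.22 and 8.22 in control, 9.71, 9.77 and 9.81 with TGFβ, 7.70, 7.59 and 7.64 with galunisertib and 8.13, 7.85 and 7.85 with both, and its interaction was -1.30 ± 0.14 (SE, limma adjusted p = 0.00088). CCN2, which encodes connective tissue growth factor, rose by 1.54 with TGFβ alone and had an interaction of -1.07 ± 0.17 (SE). ANGPTL4, a secreted inhibitor of lipoprotein lipase, and PTHLH, which encodes parathyroid hormone-related protein, had interactions of -1.53 ± 0.27 and -1.39 ± 0.27 (SE). PTHLH was near background, with 1 of 3 arrays well above it in each group given galunisertib, and was not called with the slide as a block (limma adjusted p = 0.064). The ID genes, which encode dominant-negative helix-loop-helix proteins, had 2 of 4 members called. ID1 was at 2.16, 2.20 and 2.53 in control, 3.90, 4.04 and 4.17 with TGFβ, 2.41, 2.11 and 2.41 with galunisertib and 2.66, 2.33 and 2.40 with both, with an interaction of -1.58 ± 0.20 (SE), and ID3 had one of -1.37 ± 0.28 (SE) that was not called with the slide as a block (limma adjusted p = 0.056).

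Another group of genes was called for TGFβ with and without the inhibitor, from different starting levels. The 22 genes called higher in both responses all had a lower mean level under galunisertib alone than in control, with a median difference of -1.85, and 15 of the 22 were called for that difference. The 8 genes called lower in both responses had a median difference of 1.61 between galunisertib and control, and 7 of them were called. The difference was below 0 for 1 of the 8, GACAT1 (-0.21). Over all 16099 genes tested, 88 were called higher and 101 lower with galunisertib alone than in control, and the median difference was 0.10. These differences share the galunisertib arrays with one response and the control arrays with the other, and they are given as a description. Of the 22 genes, 10 have a spot near an edge of the array, as did 58.0% of the genes called higher and 51.4% of those called lower with TGFβ under galunisertib. The part of the position in these responses was not tested. When probes with such spots were left out, 54 genes were called in the response under galunisertib, of which 51 were among the 116.

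IL11, a cytokine of the IL-6 family, had the lowest level under galunisertib relative to control among these 22 genes, and its probe has a spot near an edge of the array. Its levels were 3.24, 3.31 and 3.52 in control, 5.80, 5.88 and 6.08 with TGFβ, -0.45, -2.53 and -2.04 with galunisertib, and 2.90, 2.34 and 1.84 with both. The 4 groups did not overlap, and the galunisertib arrays were the most scattered. TGFβ raised IL11 5.92-fold without the inhibitor and 16.4-fold with it, and the interaction was 1.47 ± 0.64 (SE, limma adjusted p = 0.25). FOXS1, a forkhead transcription factor gene, was at 4.16, 4.55 and 4.47 in control, 6.55, 6.69 and 6.60 with TGFβ, -0.02, -0.37 and 0.74 with galunisertib and 3.89, 3.63 and 2.25 with both, and its interaction was 0.92 ± 0.56 (SE, limma adjusted p = 0.39). JUNB, a subunit of AP-1, and FSTL3, a secreted activin antagonist, were called in both responses, with interactions of -0.11 ± 0.35 and 0.27 ± 0.29 (SE). SPRY1, an inhibitor of receptor tyrosine kinase signalling, was called lower in both responses (-1.26 and -1.16), with an interaction of 0.10 ± 0.24 (SE) and a level 1.70 higher under galunisertib alone than in control. A second probe of SPRY1 gave an interaction of 1.09.

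**Figure D4:**
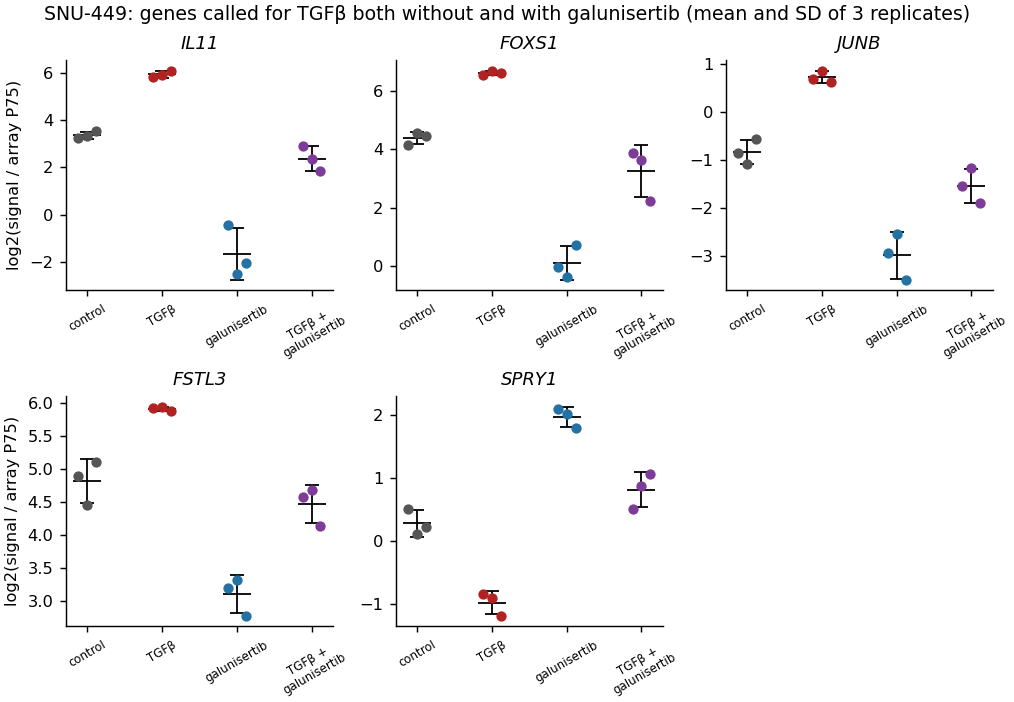
Level of 5 listed genes called for TGFβ both without and with galunisertib, on each SNU-449 array (points), as log2 of the signal over the 75th percentile (P75) of the array, with the mean and SD of 3 replicates (bars). In IL11, FOXS1, JUNB and FSTL3 galunisertib alone gave the lowest level and the combination lay near or below control, and in SPRY1 the order was turned.

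The lists of EMT, cytoskeletal, matrix and mesenchymal genes held 1 or 2 called members each, where 1.06% of all genes tested were called lower. A single call in a short list says little about that list. Of the 8 EMT transcription factors tested, SNAI1 was called and the median interaction was -0.12. SNAI2, which encodes Slug, rose by 1.08 with TGFβ alone and had an interaction of -0.78 ± 0.24 (SE), which was not called, while ZEB1 and ZEB2 had values of -0.01 and -0.08. Among 17 genes of the actin cytoskeleton, ABLIM3 was called, and CNN1, which encodes calponin, came next with -0.71 ± 0.24 (SE). The extracellular matrix list had 2 of 22 members called lower and a median of -0.44, beside -0.11 over all genes. This median was -0.18 without the arrays of replicate 3 and -0.64 with median scaling. COL4A1, a basement membrane collagen, rose 2.77-fold with TGFβ alone and had an interaction of -1.39 ± 0.17 (SE), and LOX, the collagen cross-linking lysyl oxidase, had one of -1.27 ± 0.15 (SE). Among 10 mesenchymal genes, FAP, a membrane serine protease of activated fibroblasts, was at 2.09, 2.00 and 2.17 in control, 4.03, 3.96 and 4.09 with TGFβ, 1.17, 1.05 and 1.36 with galunisertib and 1.99, 1.87 and 1.54 with both, for an interaction of -1.33 ± 0.18 (SE). ITGA5, which encodes an integrin subunit, and CDH2, which encodes N-cadherin and was picked after its values were seen, had interactions of -0.83 ± 0.16 and -0.72 ± 0.13 (SE) below the fold limit.

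Each of the epithelial and hepatocyte lists held 1 called member, where 1.06% of all genes tested were called lower and 0.385% higher. Of 15 epithelial genes tested, 1 was called lower, with a median of 0.06. CDH1, which encodes E-cadherin, was at -1.43, -0.52 and -0.73 in control, -2.91, -2.96 and -2.75 with TGFβ, 1.10, 0.43 and 1.30 with galunisertib and -0.15, -0.06 and -0.03 with both. The groups did not overlap, TGFβ alone lowered CDH1, and the interaction of 0.96 ± 0.36 (SE, limma adjusted p = 0.19) was not called. CLDN4, a tight junction claudin, was above background with TGFβ alone and on 0 of the other 9 arrays, at least 2.86-fold higher than in control. Its interaction of -1.49 ± 0.16 (SE) therefore depends on the floor and ranged from -2.77 to -0.44 with other processing. The call was lost with a lower or a higher floor, with normexp background correction and in the authors' values. CLDN1, another claudin, fell by 1.17 with TGFβ alone and had an interaction of 0.74 ± 0.18 (SE). Among 8 hepatocyte transcription factors, ONECUT1, which encodes HNF6, was called. It was at 0.75, -0.03 and 0.39 in control, -1.28, -1.09 and -1.29 with TGFβ, 1.20, 1.29 and 1.55 with galunisertib and 0.94, 1.06 and 0.85 with both, and the interaction was 1.19 ± 0.25 (SE, limma adjusted p = 0.039), a call that was lost in 21 of 31 alternatives, among them median scaling, another background correction and 13 of the 15 that left out arrays, and with the slide as a block (limma adjusted p = 0.078). NR5A2, a nuclear receptor of bile acid and cholesterol metabolism, had one of -0.82 ± 0.23 (SE) that was not called. Of 9 secreted and metabolic hepatocyte genes 1 was called, APOH (-1.53 ± 0.29, SE), whose response was 0.75 without and -0.78 with galunisertib and was called in neither. With the slide as a block APOH was not called (limma adjusted p = 0.052). CPS1, the first enzyme of the urea cycle, had an interaction of -0.54 that was not called, with values within the slides from -1.84 to 0.31.

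Transporters and clock genes each had a single called member, in the higher direction, where 0.385% of all genes tested were called higher. Of 9 ABC transporters, ABCC2 was called and the median was 0.23. ABCA1, the cholesterol exporter, rose by 1.51 with TGFβ alone and had an interaction of -1.09 ± 0.29 (SE, limma adjusted p = 0.088), with -0.56 by a second probe. Of 14 PAR bZIP and clock genes, HLF was called, while BMAL1, a core clock transcription factor, had an interaction of -0.96 ± 0.16 (SE).

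Immediate early and stress genes included 4 called members, all lower, where 1.06% of all genes tested were called lower. Of 10 AP-1 and immediate early genes, FOSB (-1.90 ± 0.23, SE), EGR2 (-1.18 ± 0.18) and ATF3 (-1.74 ± 0.30) were called lower. FOSB and EGR2 were near background: EGR2 was above it with TGFβ alone and on 0 of the other 9 arrays, at least 2.13-fold higher than in control. With other processing FOSB ranged from -3.32 to -0.60 and EGR2 from -1.65 to -0.19. Both calls were lost with normexp background correction and in the authors' values. For ATF3 the probes disagreed, as its other 2 probes gave 0.08 and -0.17. Among 11 stress genes HMOX1, which encodes heme oxygenase, was called (-1.18 ± 0.25, SE), a call lost in 20 of 31 alternatives, including 13 of the 15 that left out arrays. GADD45B rose by 1.10 with TGFβ alone and had an interaction of -0.27 ± 0.16 (SE). Among 6 cytokines the interaction furthest from 0 was that of CSF1, a macrophage growth factor, at -1.26 ± 0.46 (SE), and among 17 cell cycle genes that of CDKN1C, a cyclin-dependent kinase inhibitor, at -1.02 ± 0.32 (SE), and both missed the limits of a call. DUSP4, a phosphatase among the 10 MAPK feedback genes, had an interaction of -1.87 ± 1.65 (SE), where 1 of the 3 arrays with both agents was at the floor and the others were at 2.20 and 1.42.

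**Figure D5:**
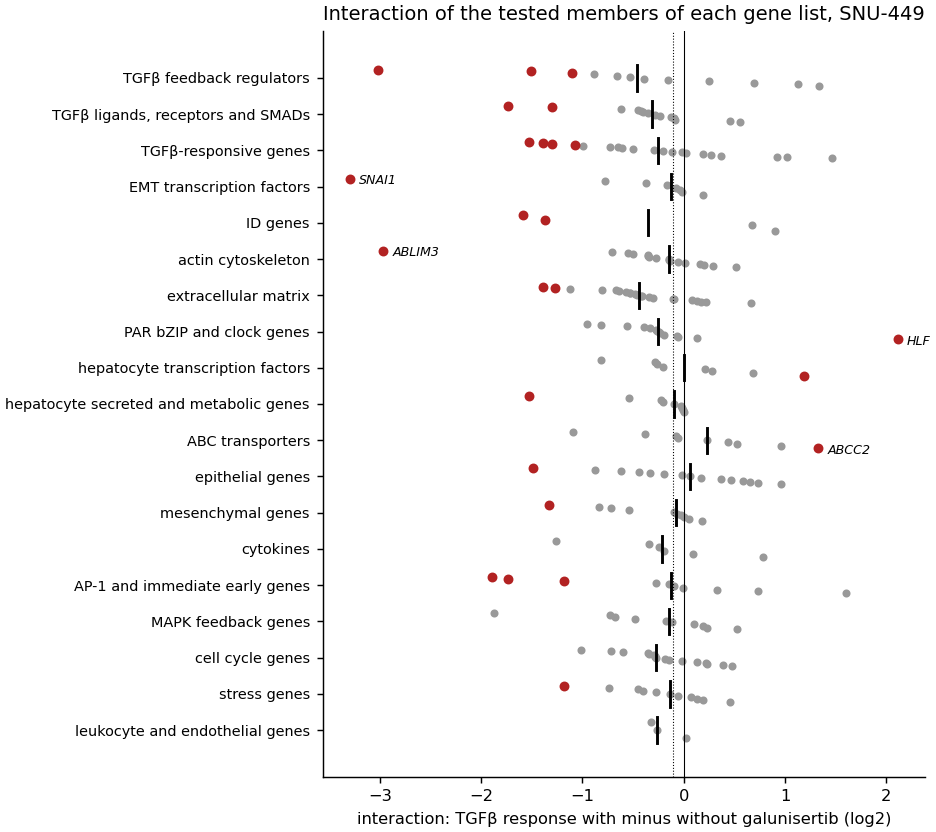
Interaction (log2) of every tested member of the 19 gene lists in SNU-449, with called members in red, the median of each list as a black bar and the median of all genes tested, -0.11, as a dotted line. Most members lie within 1 unit of 0, and the called ones are lower except HLF, ONECUT1 and ABCC2.

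Some genes were called for TGFβ in the presence of the inhibitor and not in its absence. Among the 8 genes with a lower interaction that were called lower under galunisertib only, PAMR1, a secreted protease-like gene picked after its values were seen, was not well above background on any control or TGFβ array. Its levels were -1.28, -1.76 and -1.53 with galunisertib and -2.97, -3.54 and -3.23 with both, and the interaction was -1.72 ± 0.21 (SE, limma adjusted p = 0.0020). CPA4, a carboxypeptidase gene picked in the same way, was at -1.31, -1.59 and -1.65 with galunisertib, at -3.61, -3.04 and -2.78 with both, and at the floor on all 6 arrays without the inhibitor. Both were thus measurable mainly under galunisertib alone, and a fall without the inhibitor could not have been seen. Among the 9 genes called higher under galunisertib only, ETV1, an ETS transcription factor gene also picked after its values were seen, was at 0.29, 0.32 and 0.64 in control, 0.93, 1.03 and 0.97 with TGFβ, -0.40, -0.34 and 0.34 with galunisertib and 1.79, 2.01 and 2.06 with both, and its interaction was 1.53 ± 0.26 (SE, limma adjusted p = 0.013). The TGFβ arrays lay above the control arrays, by 0.56 (SE 0.18, limma adjusted p = 0.087), which was not called.

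Most genes at the extremes of the response under galunisertib had no called interaction. The 5 highest were AKAP8 (5.08), IL11 (4.03), LOC729080 (3.97), the metallothionein gene MT1L (3.20) and FOXS1 (3.14), of which AKAP8 alone had a called interaction. LOC729080 rose by 3.13 without the inhibitor and MT1L differed by 1.81, and in PLC/PRF/5 TGFβ minus control was 3.02 and 1.41 for the same probes. One control value of MT1L was flagged by the software and left out, so that its fit used 11 arrays. The 5 lowest were lnc-NAA35-1 (-2.91), MIA3 (-2.32), ACAT2 (-2.11), lnc-LRGUK-1 (-1.89) and PRPF40B (-1.87), with interactions of -1.53, -2.56, -1.77, -0.59 and -1.62 that were not called. For MIA3, which takes part in collagen export, the 4 other probes gave interactions between -0.25 and 0.15.

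The interaction was compared between the lines in a fit of all 24 arrays. It differed for 424 of 17900 genes (2.37%, 603 by adjusted p), of which 191 were higher and 233 lower in SNU-449. SNAI1 differed by -3.82 ± 0.20 (SE, limma adjusted p = 8.8e-10), as its interaction in PLC/PRF/5 was 0.53, and ABLIM3 differed by -2.27 ± 0.32 (SE, limma), with -0.70 in PLC/PRF/5. HLF and ABCC2, in contrast, had interactions of 1.19 and 0.63 in PLC/PRF/5, and the differences of 0.92 ± 0.31 and 0.70 ± 0.19 (SE) were not called. ID1 and ID3 were opposite in the lines, with 1.14 and 1.18 in PLC/PRF/5, where TGFβ minus control was -0.99 and -1.53. CCN2 was opposite as well, at 1.19 in PLC/PRF/5. SPSB1 and TGFBI had interactions below 0 in both lines, with -0.91 and -0.71 in PLC/PRF/5, and their differences of -0.60 and -0.59 were not called.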

How the data were processed

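RNA of 24 cultures was labelled with Cy3 and hybridised to 1-colour Agilent SurePrint G3 arrays designed on hg19. The intensity values used here are the processed signals, which the authors deposited as written by Agilent Feature Extraction 10.7.3.1 after background subtraction. A second set, the log2 values that the authors deposited after normalization in GeneSpring, served as an alternative. Every column belonged to a sample.

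Control and outlier spots (111 to 216 of the latter per SNU-449 array) were left out, spots of a probe were averaged, signals were divided by the 75th percentile of the array, a floor was set and log2 was taken. Probes entered the test where all 3 arrays of any group exceeded background clearly, by the flag of the software, and the brightest such probe stands for a gene. Of 58201 probes, 31100 were named through RefSeq accessions (GRCh38.p14), 10719 by LNCipedia names in the files, and 16382 have no name here. The contrasts come from a model of group means in limma 3.58.1 (R 4.3.3), on the 12 SNU-449 arrays or, between lines, on all 24. Calls required a change above 2-fold with P below 0.001, the stricter of the P limits that the study gives for its gene lists. The fit was checked on simulated arrays with 200 changed genes. The precision is limited by 3 arrays per group.

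The genes named are SNAI1, ABLIM3, HLF and ABCC2, the 10 lowest and 10 highest called interactions with a RefSeq symbol and the same sign on the 3 slides, list members called for the interaction or for TGFβ alone, the 2 members of each of 19 lists with the largest interaction in size, and the 5 lowest and 5 highest called responses under galunisertib. The other genes (VIM, the receptor and SMAD genes, SKIL, PMEPA1, SKI, TGIF1, TGIF2, SMURF1, SMURF2, ZEB1, ZEB2, CDH2, ETV1, PAMR1, CPA4 and those of the closing observations) were chosen after their values were seen, and 1 gene of the rule is not reported here. The comparison, the lists and the tests were chosen with earlier results of these data known.

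Alternatives changed the scaling, the background correction, the floor, the filter, the probe of a gene, the replicate block, the test, the arrays in the fit and the arrays left out. The normexp correction used the median signals with an offset of 50, in place of the mean signals that had been planned. Array weights and the omission of probes near the array edge were added after the data were seen. Same-numbered arrays shared a slide, and their deviations from the means of their groups correlated at -0.08 to 0.27 between groups. All 3 numbers exceeded 0.1 between control and TGFβ and between TGFβ and TGFβ + galunisertib, but not all 3 between any other pair of groups. Between control and TGFβ + galunisertib they were 0.077 to 0.20. The fit reported has no block because the study's methods describe none, and calls that the slide as a block ended are given beside the gene.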

Additional observations from a re-analysis of the deposited data

Results flagged for a closer look

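The interaction differed between SNU-449 and PLC/PRF/5 for 37 of the 75 named genes, by a limma test of the difference itself. A call required a change above 2-fold and an unadjusted P below 0.001, which 2.37% of all genes in that fit met. Many named genes were chosen by their interaction in SNU-449, a term of this difference. The choice itself thus favours calls, and the count is a description. Each value below is the interaction in SNU-449 minus that in PLC/PRF/5, on the log2 scale. Among the transcriptional regulators it was -3.82 for SNAI1, -3.07 for LMO1, -2.73 for ID1, -2.55 for ID3, -2.10 for ATF3, -1.34 for FOSB, -1.28 for EGR2, -1.04 for BMAL1 and 1.49 for ONECUT1. Among genes of signalling it was -3.38 for JAG1, -3.21 for RASGRP3, -3.02 for LDLRAD4, -2.94 for LEFTY2, -1.74 for INHBA, -1.38 for PTHLH, -1.10 for SPRY2 and 1.49 for FSTL3. Among genes of matrix, membrane and cytoskeleton it was -3.0 for SPOCK1, -2.27 for ABLIM3, -2.26 for CCN2, -1.33 for FAP, -1.31 for COL4A1, -1.27 for LOX, -1.03 for CLDN4 and 1.40 for LOXL4. LOXL4 and FSTL3 had interactions of -0.10 and 0.27 in SNU-449 and of -1.50 and -1.22 in PLC/PRF/5, so that the difference came from the other line.

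Among the remaining genes the difference was -2.92 for FLJ16779, -2.91 for CLEC18B, -2.18 for APOH, -1.66 for ABCA1, 1.45 for SLC16A5, 1.52 for CFLAR-AS1, 1.63 for RRP7A, 1.74 for H1-9P, 1.85 for LINC00597, 2.06 for SLC14A1, 2.40 for AKAP8 and 3.50 for RIPOR3. LDLRAD4, SPOCK1, LEFTY2, FLJ16779, SLC14A1, INHBA, LOX and FAP were not well above background on any PLC/PRF/5 array, and their difference is the value of SNU-449 alone.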

How the results depend on the processing

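Of the 4 counts of calls, the 232 interaction calls fell to 103 with normexp background correction and 91 with a plain t-test. By adjusted p with a change above 2-fold, the t-test count was 42. The interaction calls rose to 369, of which 171 were higher, in the fit over all 24 arrays. The plain t-test assumed equal variances and, unlike the random variance model of the study, shared no spread between genes. For interactions it compared differences between arrays of the same number. The 380 calls for TGFβ alone fell to 220 with normexp. The 116 calls under galunisertib numbered 72 with a stricter filter, which kept probes above background throughout, and 201 when every probe was tested. They numbered 15 by the plain t-test, 188 in the fit over all 24 arrays, and 54 without probes near the edge. The 424 calls between the lines numbered 225 with median scaling, 208 without scaling, 216 with normexp and 227 with the stricter filter. They numbered 641 over every probe and 134 by the plain t-test. With the replicate block the 4 counts were 208, 358, 111 and 435. The block ended the calls of LINC00597, PTHLH, ID3, ONECUT1 and APOH, and the fit reported does not take the numbers as pairs.

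When arrays or whole replicates were left out, the counts ranged from 143 to 267, 283 to 392, 101 to 154 and 265 to 566. The lowest counts of interaction calls and of calls between the lines came without replicate 2. Scaling decided part of the direction: the median interaction of all genes was -0.11, -0.30 with median scaling and 0.033 with the percentile of detected probes, and 62 of 232 calls were higher in the interaction, against 30 of 206 with median scaling and 89 of 214 with the percentile of detected probes. Between the lines the higher calls were 191 of 424, 76 of 225 and 323 of 462. For TGFβ alone they were 245 of 380, and 326 of 426 without scaling, and under galunisertib 81 of 116, 78 of 131 with median scaling and 109 of 136 without scaling.

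Of 41 named genes with a called interaction, normexp ended the call of 15 (HLF and AKAP8 among them), the plain t-test of 21 and median scaling of 6. Leaving out replicate 1, 2 or 3 ended the calls of 17, 15 and 15. The calls lost most often were those of ONECUT1 (21 of 31 alternatives), HMOX1 (20), LTBP1 (18), LINC00597 (18), PTHLH (17), ID3 (15) and SLC14A1 (14). The sign of some uncalled interactions turned. With the percentile of detected probes JUNB was at 0.026 and LOXL4 at 0.047, with quantile normalization LOXL4 was at 0.022, with median scaling SPRY1 was at -0.10, with normexp SPRY1 was at -0.14 and lnc-LRGUK-1 at 0.16, with a higher floor lnc-LRGUK-1 was at 0.074, and with the mean of its probes PTPRC was at 0.22. ATF3, which was called, was at 0.075 in the authors' values, where another of its probes was used. With arrays left out JUNB ranged from -0.37 to 0.12, LOXL4 from -0.31 to 0.059, CPS1 from -1.06 to 0.38, SPRY1 from -0.19 to 0.27, PTPRC from -0.60 to 0.029 and VWF from -0.64 to 0.039. The cause of these differences was not tested. For dim genes the signal over background limits the size of a fold.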

Other observations

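Several genes outside the lists had large interactions, and they were chosen for description after their values were seen. Among secreted ligands and their antagonists, LEFTY1, an inhibitor of nodal signalling like LEFTY2, had an interaction of -2.17 ± 0.37 (SE). LEFTY1 was well above background on all 3 TGFβ arrays, on 0 control arrays and on 1 array of each group given galunisertib. GDF6, a bone morphogenetic protein, was at -1.28, -0.80 and -0.75 in control, 1.62, 1.64 and 1.80 with TGFβ, -3.61, -3.27 and -2.87 with galunisertib and -2.40, -2.93 and -3.17 with both, and its interaction was -2.21 ± 0.33 (SE). NOG, an antagonist of bone morphogenetic proteins, and LRRC32, which tethers latent TGFβ to the cell surface, had interactions of -1.97 ± 0.42 and -2.0 ± 0.43 (SE). In GDF6, NOG and LRRC32 both groups given galunisertib lay below control, and NOG and LRRC32 were well above background on 0 arrays with galunisertib alone. FURIN, a protease that processes TGFβ precursors, had an interaction of -1.55 ± 0.20 (SE), and PDGFA, a platelet-derived growth factor, one of -2.06 ± 0.15 (SE). HEY1, a target gene of Notch, had one of -1.64 ± 0.18 (SE). It was at the floor on all 3 arrays with galunisertib alone and well above background on 1 array with both. The size of its response under the inhibitor therefore depends on the floor, and a relation to JAG1 was not tested.

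Receptors for lipids and nucleotides were also among them. S1PR5, a sphingosine 1-phosphate receptor, was at -1.60, -1.27 and -1.40 in control, 0.37, 0.49 and 0.59 with TGFβ, -1.11, -1.40 and -0.90 with galunisertib and -1.66, -1.47 and -1.44 with both, with an interaction of -2.29 ± 0.20 (SE). P2RY2, a nucleotide receptor, rose with TGFβ alone and was well above background on 0 of the 6 arrays with galunisertib, so that its response under the inhibitor has no measured size. LPAR5, a lysophosphatidic acid receptor, was at the floor on every array other than those with TGFβ alone. RASGRP1, a relative of RASGRP3, had an interaction of -1.58 ± 0.17 (SE). Among genes with higher interactions were SLC2A2, the hepatic glucose transporter, at 1.16 ± 0.25 (SE), AOX1, an aldehyde oxidase, at 1.40 ± 0.25 (SE), and PPARGC1B, a transcriptional coactivator of mitochondrial metabolism, at 1.09 ± 0.16 (SE). PPARGC1B was at 1.23, 0.88 and 1.20 in control, -0.19, -0.16 and -0.08 with TGFβ, 1.70, 1.57 and 1.56 with galunisertib and 1.31, 1.49 and 1.57 with both.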
